A study of Homo sapiens with 18 samples.

Results

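The experiment analysed here asks whether depletion of CHD4 had another effect on the transcriptome of SW48 cells, a human colon adenocarcinoma line, when the cells also received decitabine. It rests on 12 of the 18 RNA sequencing libraries of the study, 3 in each of 4 groups. The first group received siCHD4, a small interfering RNA against CHD4, with 50 nM decitabine, and the second received control siRNA with 50 nM decitabine. The third group received siCHD4 alone and the fourth received control siRNA alone. With decitabine, the drug was given on days 1, 2 and 3 and the siRNA on days 1 and 2, with harvest of RNA on day 5. Without it, the siRNA was given on days 1, 3 and 6, with harvest on day 8. The drug and the schedule therefore cannot be told apart in any comparison of the groups with decitabine and those without. The remaining libraries of the study received siDNMT1, a small interfering RNA against DNMT1, followed by siCHD4 or control siRNA. Their RNA was harvested later than that of the 4 groups. They enter the filter on low values, the fit and a side-by-side of values below. All 4 groups came from the same line, grown in L-15 medium with 10% serum, and nothing in the labels says that the replicates were separate cultures, so the p-values below rest on a spread among libraries that may be purely technical.

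CHD4 is the ATP-driven remodeller within NuRD, a complex that moves nucleosomes and removes acetyl groups from histones. Decitabine replaces cytosine during DNA synthesis and binds DNA methyltransferases covalently, so that methylation is lost as cells divide. Cancer-testis genes, many of them on the X chromosome, are the textbook example of genes that promoter methylation keeps silent in somatic cells and that decitabine derepresses in tumour lines. For each gene the measured quantity was the siCHD4 effect with decitabine (siCHD4 with decitabine minus control siRNA with decitabine) minus the siCHD4 effect alone (siCHD4 minus control siRNA), on log2(FPKM + 1), where FPKM is a fragment count normalized for transcript length and sequencing depth. A positive difference means that siCHD4 raised the gene more, or lowered it less, when decitabine was present.

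Promoters of the MAGE genes, which are among the largest positive differences, and of TXNIP, which has one of the largest negative ones, are printed first. Each window of 300 bases, most of it upstream of an annotated transcript start in RefSeq (GRCh38.p14), is written 5′ to 3′ on the gene's own strand. In the MAGE promoters the capitals mark CGGATGTGA, letters chosen after these windows were read. They contain the GGA core that ETS-family factors are known to bind. MAGEA4 lies at chrX:151912224-151912523 (the most upstream of 5 annotated starts), MAGEA8 at chrX:149880933-149881232, MAGEA11 at chrX:149711810-149712109 and MAGEB2 at chrX:30215313-30215612, all on the plus strand.
MAGEA4: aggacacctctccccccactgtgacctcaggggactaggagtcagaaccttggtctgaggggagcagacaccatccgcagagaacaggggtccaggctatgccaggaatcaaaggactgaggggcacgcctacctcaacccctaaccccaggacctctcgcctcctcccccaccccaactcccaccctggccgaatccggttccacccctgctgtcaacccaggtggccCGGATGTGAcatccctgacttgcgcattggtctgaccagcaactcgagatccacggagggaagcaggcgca
MAGEA8: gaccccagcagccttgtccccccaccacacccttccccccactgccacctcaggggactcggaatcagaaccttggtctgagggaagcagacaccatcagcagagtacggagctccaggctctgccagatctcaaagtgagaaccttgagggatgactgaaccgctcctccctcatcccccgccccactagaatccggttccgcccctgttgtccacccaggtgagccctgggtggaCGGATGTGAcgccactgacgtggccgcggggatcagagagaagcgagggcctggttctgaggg
MAGEA11: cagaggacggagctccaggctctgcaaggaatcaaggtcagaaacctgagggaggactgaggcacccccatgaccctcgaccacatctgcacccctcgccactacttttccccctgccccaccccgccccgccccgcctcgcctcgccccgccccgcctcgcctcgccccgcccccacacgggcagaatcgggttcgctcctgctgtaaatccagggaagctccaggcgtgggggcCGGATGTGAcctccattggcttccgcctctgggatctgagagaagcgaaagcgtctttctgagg
MAGEB2: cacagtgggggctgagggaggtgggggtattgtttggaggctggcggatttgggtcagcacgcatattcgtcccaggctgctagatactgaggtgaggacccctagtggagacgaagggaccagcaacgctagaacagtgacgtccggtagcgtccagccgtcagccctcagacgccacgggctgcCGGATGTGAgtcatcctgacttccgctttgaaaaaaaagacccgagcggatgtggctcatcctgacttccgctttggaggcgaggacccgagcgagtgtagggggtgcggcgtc
These windows hold 10, 12, 21 and 21 CG dinucleotides in the order printed, the bases that DNA methyltransferases modify. On either strand, CGGATGTGA occurred in 78 of 35116 annotated promoter windows of this length (0.222%), and in those of 5 of the 71 genes with a positive called difference and a window here (the 4 printed and MAGEA12). The MAGE genes are paralogues, so shared letters also reflect shared descent. The letters were taken from the 4 printed windows, so their hits were fixed in advance and the shares are not compared. For TXNIP, at chr1:145996530-145996829 on the minus strand, the capitals mark the paired CACGAG boxes, separated by 5 bases, of the element through which the glucose-responsive factor MondoA is known to act.
TXNIP: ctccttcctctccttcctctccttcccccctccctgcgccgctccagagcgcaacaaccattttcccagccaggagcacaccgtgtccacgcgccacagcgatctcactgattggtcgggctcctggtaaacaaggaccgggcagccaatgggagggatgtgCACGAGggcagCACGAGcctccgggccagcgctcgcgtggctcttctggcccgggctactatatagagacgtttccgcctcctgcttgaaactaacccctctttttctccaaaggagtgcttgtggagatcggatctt
The motif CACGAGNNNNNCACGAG occurred on either strand in 2 of the 35116 windows (0.0057%), and TXNIP holds 1 of them. A match of letters is a description and says nothing of binding in these cells.

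The targeted gene was lower in both siCHD4 groups. CHD4 (chr12:6679248-6723690 in GRCh37, minus strand) was at 55.6, 56.5 and 52.6 FPKM in siCHD4 with decitabine, against 66.8, 80.2 and 81.5 FPKM in control siRNA with decitabine, and at 39.0, 31.8 and 23.2 FPKM in siCHD4 alone, against 59.1, 61.2 and 68.2 FPKM in control siRNA. Neither pair of groups overlapped. The mean with siCHD4 was 72.1% of its control with decitabine and 49.9% of its control without. The siCHD4 effect on CHD4 was -0.46 with decitabine (adjusted p = 0.075) and -1.01 alone (adjusted p = 0.00020), and their difference was 0.55 (standard error 0.19, 95% interval 0.13 to 0.96, adjusted p = 0.21). The remaining share of CHD4 was higher in the combination, a difference that did not pass the test, and the part of unequal depletion in the differences below was not tested. DNMT1, whose product is a main target of decitabine, averaged 50.1 ± 4.75 FPKM in siCHD4 with decitabine, 51.7 ± 2.91 in control siRNA with decitabine, 42.5 ± 7.18 in siCHD4 and 44.7 ± 0.892 in control siRNA (SD, n = 3 each), with a difference of 0.04 (95% interval -0.30 to 0.37, adjusted p = 0.93).

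One library stood apart. In control siRNA with decitabine replicate 0, the worth of 1 fragment, read from the smallest step between low values, was 4.11 times that in control siRNA replicate 0, while in the others of the 12 this ratio lay between 0.599 and 1.13, so that library was several times shallower than its group. The counts over all genes, the patterns and the gene lists below are therefore also given without it. All 16 colon epithelial markers averaged at least 1 FPKM in each group, with summed levels of 1714 to 1785 FPKM in siCHD4 with decitabine, 2144 to 2760 in control siRNA with decitabine, 1520 to 1724 in siCHD4 and 2327 to 2465 in control siRNA. The summed level of 13 fibroblast genes was 14.7 to 16.0, 2.70 to 5.23, 4.24 to 6.79 and 0.416 to 0.887 FPKM in the same order of groups, through COL6A3 and LUM, while COL1A2, COL3A1, FAP and POSTN were listed at 0 in all 12 libraries. The summed blood markers reached at most 6.45 FPKM in a library and the endothelial markers at most 4.79 FPKM. Neural and glial markers summed to between 12.4 and 17.4 FPKM over the 4 groups, and MBP was their only member that averaged at least 1 FPKM.

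Of 12809 genes tested, 99 had a higher siCHD4 effect with decitabine than alone (0.773%) and 49 a lower one (0.383%), at an adjusted p below 0.05. Without control siRNA with decitabine replicate 0 the counts were 146 and 52, and 91 (0.710%) and 37 (0.289%) genes were called both with and without that library. At an unadjusted p below 0.05 there were 1953 genes, and 46 higher and 20 lower differences among the called ones were at least 1 on the log2 scale. Counts this small moved with single libraries: the 99 and 49 became 59 and 22 without control siRNA replicate 0, 54 and 17 without control siRNA replicate 1, and 164 and 143 without siCHD4 replicate 2. Leaving out siCHD4 with decitabine replicate 0 gave 62 and 16, replicate 1 gave 64 and 17, and replicate 2 gave 22 lower differences. A fit on the 12 libraries alone, which has fewer degrees of freedom, called 23 and 7, and a fit with estimated library weights called 1395 and 1018. The siCHD4 effects that the difference is made of were themselves called for 418 higher (3.26%) and 168 lower genes (1.31%) with decitabine, and for 1227 higher (9.58%) and 1244 lower genes (9.71%) alone. Over all tested genes the median difference was 0.01, beside a standard deviation of 0.55 between genes.

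**Figure D1:**
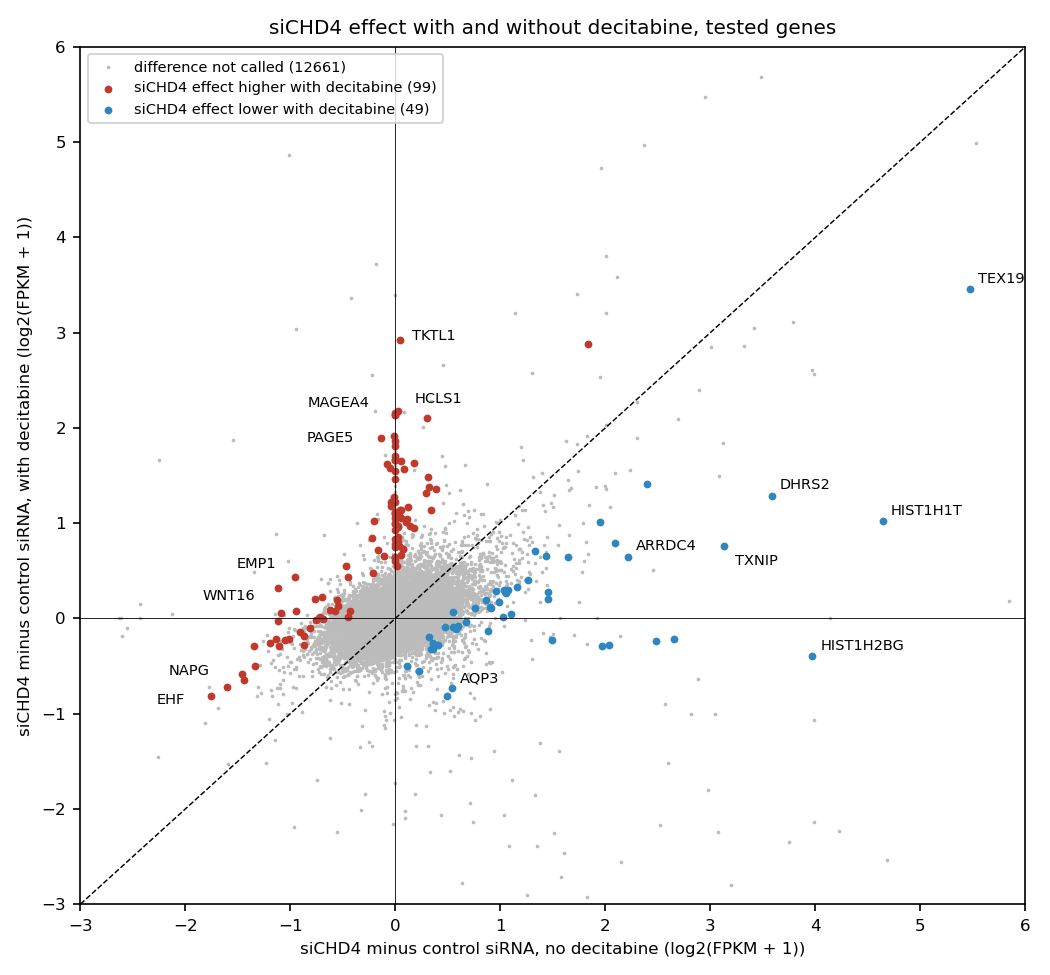
The siCHD4 effect with decitabine (vertical axis) is plotted against the siCHD4 effect alone (horizontal axis), both in log2(FPKM + 1), for the tested genes; red and blue points are the 99 and 49 genes whose effects differed, grey points the other 12661, and the dashed line marks equal effects. The red points form a column near 0 on the horizontal axis and a band at its negative side, and the blue points lie to the right of the line; 33 genes, none of them called, lie outside the axes.

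The 99 higher differences fell into a few patterns. For 63 genes, siCHD4 raised the gene with decitabine and its effect alone was not called. Of these, 58 averaged under 0.5 FPKM in both siCHD4 and control siRNA alone. The filter favours such genes, since 47 of the 99 passed it only through siCHD4 with decitabine or with siDNMT1. The same share over all tested genes was not computed, so the 58 are a description. For 27 genes siCHD4 lowered the gene alone and its effect with decitabine was not called, and 5 more (EHF, ALDH3A1, BCAR3, FERMT1 and NAPG) were lowered in both settings, less so with decitabine. A further 3, among them HBE1 and EDA2R, were raised in both, more so with decitabine, and STARD4 was raised with decitabine and lowered alone. Of the 49 lower differences, 36 were raised by siCHD4 alone with no called effect under decitabine, 9 were raised in both settings but less so with decitabine, 3 (SNORA25, HOMER2 and CDC25C) were lowered with decitabine only by call, and AQP3 was lowered with decitabine and raised alone. Without the shallow library, 59 of the 63, 24 of the 27, all 5, 2 of the 3 and STARD4 were still called among the higher differences, and 26 of the 36, 7 of the 9, all 3 and AQP3 among the lower. These patterns describe calls, and an effect that is not called is not shown to be 0.

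Cancer-testis genes led the higher differences. Of 111 listed cancer-testis and germline genes 54 were tested, and 24 of these had a higher and 1 (TEX19) a lower difference, against 0.773% and 0.383% of all tested genes. Without control siRNA with decitabine replicate 0, 31 were higher and 1 lower. The filter on low values bears on these counts. Of the 54, 30 reached 1 FPKM in 3 libraries only through those of siCHD4 with decitabine or with siDNMT1, as did 17 of the 24. The share among all tested genes was 4.34%. A gene that passes in that way was selected for a high level in these combinations, which favours a call without forcing one. The counts are thus a description of the tested members, whose median difference was 0.70. In all 24, each of the 3 libraries of siCHD4 with decitabine was above each of the other 9. The call on these same libraries favours that separation, so it adds no separate support. All 24 averaged under 0.5 FPKM in siCHD4 and in control siRNA, as did 44 of the 54 tested. Of the 24, 12 were listed at 0 in all 6 libraries without decitabine, and 23 lie on the X chromosome. Most of the 54 tested members lie there too, so the last count partly follows from the list. The X chromosome held 31 of the 89 higher genes with a position (34.8%), against 2 of 41 lower genes (4.88%) and 382 of 11383 tested genes (3.36%). Among genes called both with and without the shallow library it held 29 of 84 higher (34.5%) and 2 of 30 lower ones (6.67%). The 31 include the 23 cancer-testis genes. Of all 99 higher genes, 47 (47.5%) passed the filter only through the siCHD4 combinations, against 4.34% of all tested genes. The X share is thus a description too. In bulk RNA, more cells with a transcript and more transcript per cell cannot be told apart.

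TKTL1 (chrX:153524148-153558700 in GRCh37, plus strand), a transketolase-like gene expressed in testis and in tumours, had the largest positive difference. It was at 16.4, 16.1 and 15.0 FPKM in siCHD4 with decitabine, against 2.81, 0.742 and 0.646 FPKM in control siRNA with decitabine, and at 0, 0.0915 and 0.0463 FPKM in siCHD4, against 0, 0 and 0.0454 FPKM in control siRNA. The gene was thus nearly silent without the drug, low with the drug, and high in every library that had both, with no overlap. Its siCHD4 effect was 2.92 with decitabine and 0.04 alone, a difference of 2.88 (95% interval 2.23 to 3.53, adjusted p = 0.00016).

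The MAGE-A and MAGE-B families encode antigens that partner RING ubiquitin ligases and are normally limited to germ cells. MAGEA4 (chrX:151080967-151093643) was at 5.64, 4.14 and 5.30 FPKM in siCHD4 with decitabine, against 0.295, 0.483 and 0.318 FPKM in control siRNA with decitabine, and was listed at 0 in all 6 libraries without decitabine. Its difference of 2.14 (95% interval 1.79 to 2.48, adjusted p = 1.5e-05) is the whole of its siCHD4 effect with decitabine, since both groups without the drug were at 0. MAGEB2 (chrX:30233680-30238206) was at 5.99, 4.89 and 6.28 FPKM in siCHD4 with decitabine, against 1.90, 0 and 0.205 FPKM in control siRNA with decitabine, and was also listed at 0 in the other 6. Here the shallow library held the highest of the 3 drug-only values, and the difference of 2.14 (adjusted p = 0.010) was 2.61 without it.

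MAGEA11 was at 7.82, 6.95 and 8.49 FPKM in siCHD4 with decitabine, against 2.39, 0.866 and 0.971 FPKM in control siRNA with decitabine, and at no more than 0.0644 FPKM in any library without the drug. MAGEA1 was at 9.38, 8.58 and 11.3 FPKM with both, against 4.15, 2.18 and 1.34 FPKM with the drug and control siRNA, and was listed at 0 in the rest. In both genes decitabine with control siRNA already gave a signal, and the addition of siCHD4 brought every library above it. Their differences were 1.92 (adjusted p = 0.0017) and 1.67 (adjusted p = 0.0097). MAGEA8 (1.62), MAGEB6 (1.80) and MAGEC2 (1.54) were also called, as were MAGEA3 (1.08, adjusted p = 0.0017) and MAGEA6 (1.10, adjusted p = 0.048), near-identical paralogues whose values are uncertain because their reads can be assigned to either. MAGEA6 kept its call in 1 of the 12 fits that leave out 1 library each (highest adjusted p = 0.124).

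Other X-linked germline families behaved likewise. PAGE5, of the PAGE antigen family, was at 21.7, 21.1 and 27.1 FPKM in siCHD4 with decitabine, against 5.37, 6.21 and 4.92 FPKM in control siRNA with decitabine, while a single library without the drug (control siRNA replicate 2, 0.325 FPKM) was above 0. SSX3, of a family of nuclear proteins first known from synovial sarcoma fusions, was at 17.1, 13.5 and 15.7 FPKM with both, against 3.15, 4.88 and 5.16 FPKM with decitabine and control siRNA, and above 0 in 1 of the other 6 libraries (0.183 FPKM, control siRNA). Both genes were measurable in every library of control siRNA with decitabine, and the libraries with siCHD4 and the drug lay above all of these. Their differences were 2.03 (95% interval 1.62 to 2.45, adjusted p = 8.0e-05) and 1.70 (95% interval 1.31 to 2.09, adjusted p = 0.00017). CTAG2, a homologue of the NY-ESO-1 antigen gene, was at 10.1, 6.28 and 9.83 FPKM with both, against 1.60, 2.25 and 1.97 FPKM with decitabine and control siRNA, and at 0 elsewhere, a difference of 1.71 (adjusted p = 0.0023). VCX and VCX2, members of a germ-cell family of near-identical X-linked copies whose values are uncertain for that reason, had differences of 2.15 and 1.67.

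**Figure D2:**
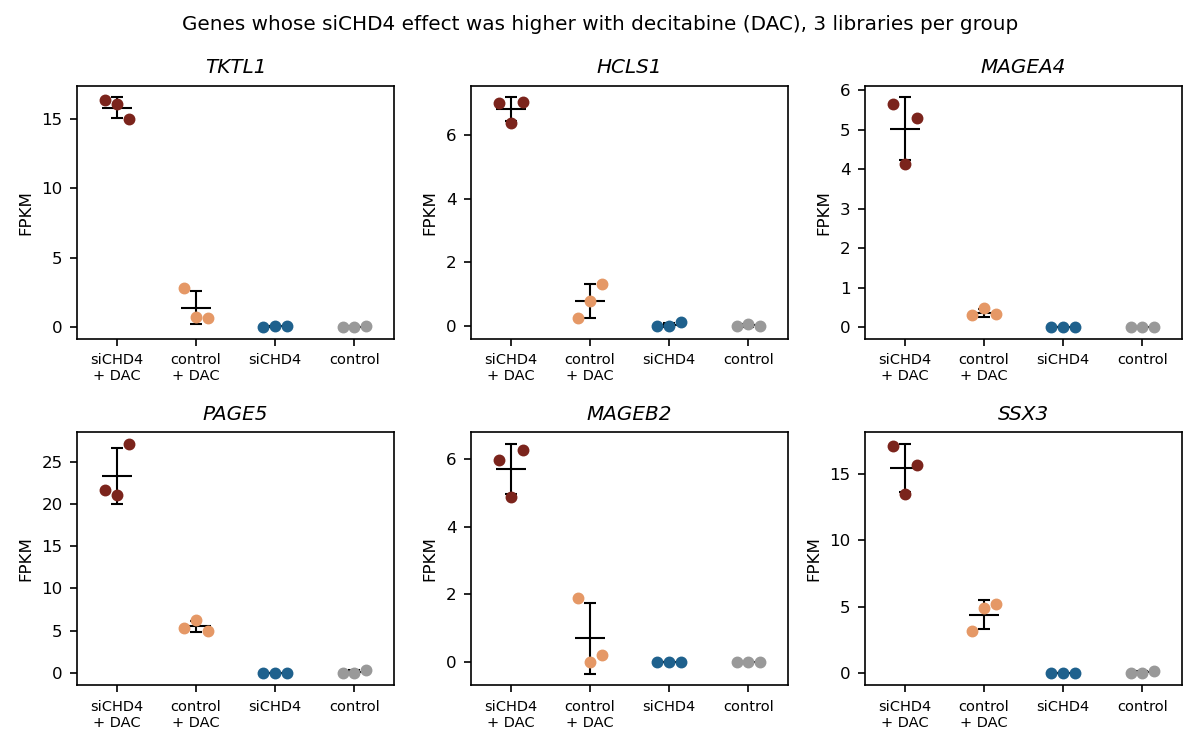
FPKM of 6 genes in each of the 3 libraries of the 4 groups; points are libraries, the horizontal bar is the mean and the error bar 1 SD, and DAC is decitabine. In every panel the 3 libraries of siCHD4 with decitabine lie above the other 9, for TKTL1 at 15.0 to 16.4 FPKM.

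Not every germline gene followed this pattern. PAGE1 was at 63.8, 55.7 and 69.7 FPKM in siCHD4 with decitabine, against 17.6, 7.98 and 6.94 FPKM in control siRNA with decitabine, and at 2.58, 2.23 and 6.75 FPKM in siCHD4, against 0, 0.254 and 0.237 FPKM in control siRNA. siCHD4 raised it in both settings, by 2.54 with decitabine and 1.95 alone, and the difference of 0.59 did not pass the test (95% interval -0.36 to 1.54, adjusted p = 0.56). TEX19 (chr17:80317123-80321651), a germ-cell gene that acts on transposons, went the other way. It was at 16.2, 15.5 and 16.4 FPKM in siCHD4 with decitabine, against 1.54, 0.210 and 0.222 FPKM in control siRNA with decitabine, and at 49.9, 68.4 and 54.6 FPKM in siCHD4, against 0.250, 0.201 and 0.498 FPKM in control siRNA. Both siCHD4 groups lay far above their controls, the one without decitabine farther, and the difference was -2.02 (95% interval -2.66 to -1.38, adjusted p = 0.0030). With decitabine 41 of the 54 tested members were raised by siCHD4, beside 3.26% of all tested genes, and alone 3 were, beside 9.58%. Of the 54, 30 passed the filter only through libraries of siCHD4 with decitabine or siDNMT1, so the first share is partly built in. The other 56 listed genes in the table did not pass the filter on low values, of which 22 were listed at 0 in all 12 libraries and none exceeded 1.03 FPKM in these libraries.

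**Figure D3:**
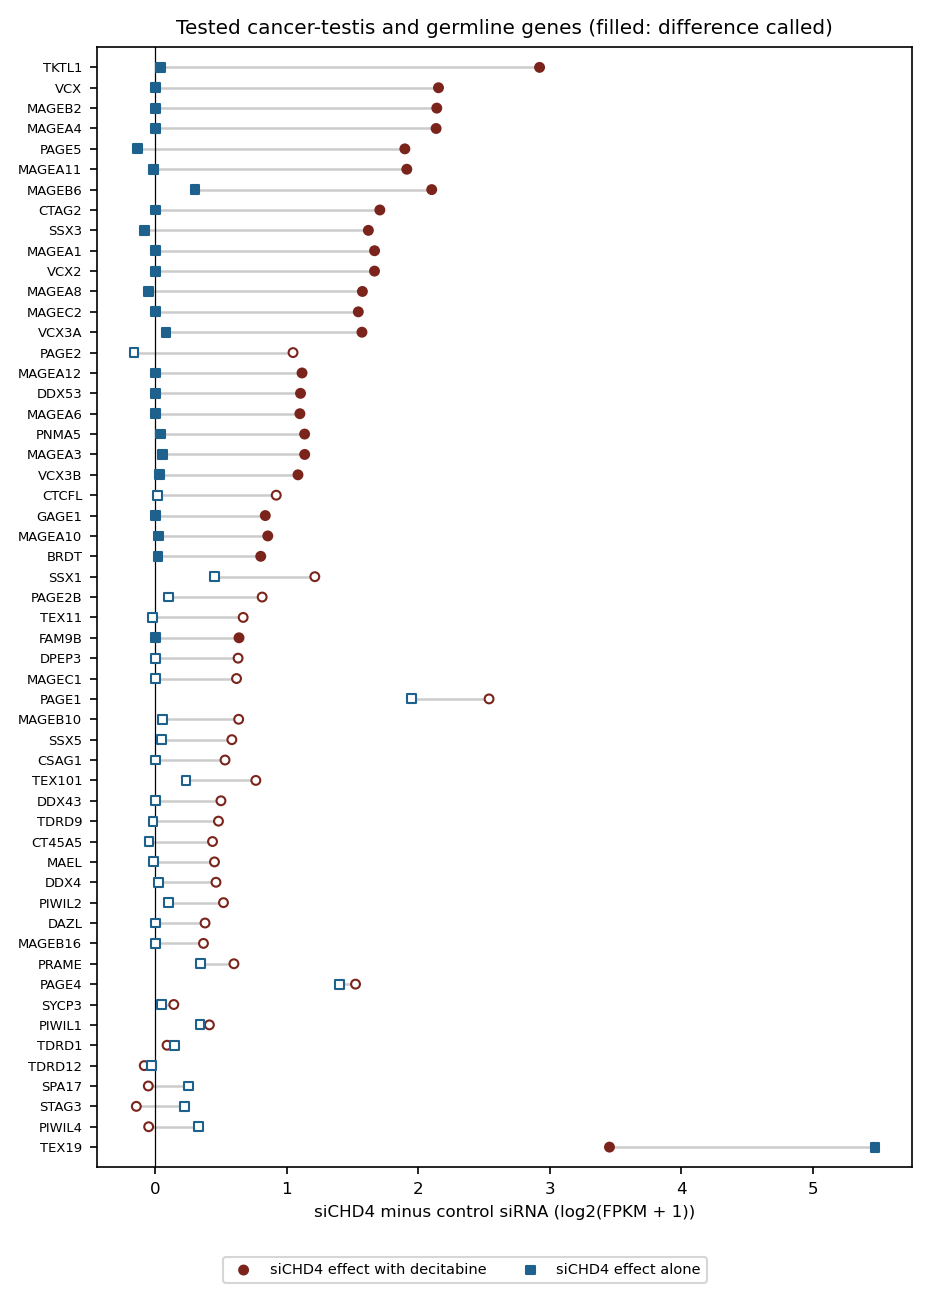
siCHD4 effect with decitabine (circles) and alone (squares), in log2(FPKM + 1), for the 54 tested cancer-testis and germline genes, ordered by their difference; filled symbols mark the 25 genes whose difference was called. Most squares sit near 0 with the circle to their right, while TEX19 at the bottom has its square at 5.47 and its circle at 3.45.

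Summed over the 54 tested members, the list stood at 348, 316 and 364 FPKM in siCHD4 with decitabine, against 164, 101 and 91.8 FPKM in control siRNA with decitabine, and at 64.8, 84.2 and 75.7 FPKM in siCHD4, against 7.37, 7.59 and 9.96 FPKM in control siRNA. The combined treatment had the highest sums, in a set of members that the filter partly selected for high levels there. TEX19 gave most of the sum in siCHD4 alone. BRDT, a testis bromodomain gene on chromosome 1, was the single called higher member off the X chromosome, with a difference of 0.78 (adjusted p = 0.020).

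Genes outside the germline list rose in the combination in the same way. HCLS1 (chr3:121350246-121379774, minus strand), an actin-binding adaptor of blood cells, was at 7.00, 6.38 and 7.04 FPKM in siCHD4 with decitabine, against 0.244, 0.796 and 1.31 FPKM in control siRNA with decitabine, and at no more than 0.120 FPKM without the drug. S100A7, the epidermal calcium-binding protein psoriasin, was at 3.40, 2.53 and 3.70 FPKM with both, against 0, 0.526 and 0 FPKM with decitabine and control siRNA, and at 0 elsewhere. For each gene the 3 libraries of the combination lay above the other 9. Their differences were 2.15 (95% interval 1.68 to 2.62, adjusted p = 0.00011) and 1.86 (adjusted p = 0.0012). KRT31, a hair keratin, was at 30.6, 33.0 and 27.6 FPKM with both, against 12.2, 8.29 and 7.39 FPKM with decitabine and control siRNA, and under 1 FPKM without the drug, a difference of 1.46 (adjusted p = 0.015). TUBA3E, an alpha-tubulin with near-identical copies (1.59), AEBP1, a carboxypeptidase-like matrix protein (1.26), and the unplaced LOC100129520 (1.81) were called as well. Of 13 tested genes often hypermethylated in colorectal cancer, 1 was higher, ESR1 (oestrogen receptor alpha), beside 0.773% of all tested genes. Without the shallow library 2 were, with UCHL1. ESR1 was at 0.459, 0.445 and 0.506 FPKM in siCHD4 with decitabine, against 0, 0 and 0.0156 FPKM in control siRNA with decitabine (difference 0.53, adjusted p = 0.023). It stayed under 1 FPKM in all 12 libraries and passed the filter only through siCHD4 with siDNMT1, where it averaged 1.10 FPKM.

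On the log2(FPKM + 1) scale a few genes were raised in both settings and more with decitabine. EDA2R and HBE1, named here, lost their call with a pseudocount of 0.1, so these calls depend on the scale. EDA2R, a receptor of the TNF receptor family and a p53 target, was at 1.88, 2.03 and 2.02 FPKM in siCHD4 with decitabine, against 0.138, 0.226 and 0.119 FPKM in control siRNA with decitabine, and at 0.339, 0.377 and 0.205 FPKM in siCHD4, against 0 in all 3 control siRNA libraries. It lay above its own control in both settings with no overlap. Its difference was 0.98 (95% interval 0.73 to 1.22, adjusted p = 0.00051), while that of HBE1, the embryonic globin (1.04, adjusted p = 0.037), had an adjusted p of 0.063 without the shallow library and kept its call in 3 of the 12 fits that leave out 1 library. EDA2R was the sole member called among 35 tested p53 targets, with and without the shallow library. Of all tested genes, 0.773% had a higher and 0.383% a lower difference.

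In a second group of higher differences, siCHD4 alone lowered the genes, and with decitabine it did so less or not by call. A gene near 0 in control siRNA cannot fall much on this scale, so this definition leaves out silent genes. In WNT16, a Wnt ligand gene, levels were 37.8, 38.9 and 41.4 FPKM in siCHD4 with decitabine, against 32.3, 30.4 and 31.1 FPKM in control siRNA with decitabine, and 20.0, 18.5 and 29.0 FPKM in siCHD4, against 51.6, 50.9 and 45.3 FPKM in control siRNA. The siCHD4 libraries lay above their controls with the drug and below them without it. The effect was 0.32 with decitabine (adjusted p = 0.17) and -1.12 alone (adjusted p = 3.0e-05), a difference of 1.44 (95% interval 1.07 to 1.82, adjusted p = 0.00055). EMP1, an epithelial membrane protein gene, had an effect of 0.44 with decitabine (adjusted p = 0.17) and -0.96 alone, a difference of 1.40 (adjusted p = 0.010).

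For NCEH1, a hydrolase of cholesterol esters, the control level itself was lower with the drug. It was at 13.1, 14.7 and 14.9 FPKM in siCHD4 with decitabine, against 14.7, 14.9 and 14.0 FPKM in control siRNA with decitabine, and at 12.7, 11.7 and 11.6 FPKM in siCHD4, against 25.5, 27.0 and 29.1 FPKM in control siRNA. The 2 groups with decitabine overlapped, those without it did not, and control siRNA alone was the single high group. Its difference was 1.09 (95% interval 0.88 to 1.30, adjusted p = 6.0e-05). SPTSSB, a small subunit of serine palmitoyltransferase, likewise had its highest level in control siRNA alone: it averaged 5.34 ± 0.467 FPKM in siCHD4 with decitabine, 6.74 ± 0.814 in control siRNA with decitabine, 6.80 ± 0.825 in siCHD4 and 18.8 ± 1.12 in control siRNA, with a difference of 1.06 (adjusted p = 0.0023). KLF9, a zinc-finger transcription factor gene (1.02), and TANC1, which encodes a scaffold protein (1.15), were called too.

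EHF, an ETS factor of epithelial cells, was lowered in both settings. It was at 36.5, 41.1 and 40.6 FPKM in siCHD4 with decitabine, against 50.8, 82.7 and 80.9 FPKM in control siRNA with decitabine, and at 36.9, 30.5 and 29.8 FPKM in siCHD4, against 111, 116 and 107 FPKM in control siRNA. The siCHD4 groups were close to each other, while the control was lower with the drug than without. The effects were -0.81 and -1.76, a difference of 0.95 (95% interval 0.52 to 1.37, adjusted p = 0.031). BCAR3, a signalling adaptor gene (0.88, adjusted p = 0.028), FERMT1, which encodes the integrin activator kindlin-1 (0.83, adjusted p = 0.019), and NAPG, which encodes the membrane-fusion factor gamma-SNAP (0.80, adjusted p = 0.019), were likewise lowered in both settings, and their mean control level was lower with the drug than without. ALDH3A1, an aldehyde dehydrogenase gene (0.89, adjusted p = 0.010), was lowered in both settings with another order of levels. It was at 25.4, 26.4 and 25.7 FPKM in siCHD4 with decitabine, against 37.2, 44.4 and 48.6 FPKM in control siRNA with decitabine, and at 16.3, 17.4 and 12.7 FPKM in siCHD4, against 51.5, 50.2 and 45.0 FPKM in control siRNA. Here the controls overlapped, and siCHD4 was higher with the drug than without. CCND1, the cyclin D1 gene (0.80, adjusted p = 0.047), and SCD, the stearoyl-CoA desaturase gene (0.82, adjusted p = 0.023), were called lower alone and not with decitabine. CCND1 kept its call in 5 of the 12 fits that leave out 1 library each (highest adjusted p = 0.141) and lost it under median ratio rescaling and quantile normalization.

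STARD4, which encodes a cholesterol carrier, was raised by siCHD4 with decitabine and lowered by it alone. It was at 6.60, 6.74 and 6.73 FPKM in siCHD4 with decitabine, against 3.68, 4.18 and 4.98 FPKM in control siRNA with decitabine, and at 7.28, 7.43 and 10.4 FPKM in siCHD4, against 13.0, 13.1 and 9.74 FPKM in control siRNA. The groups with decitabine did not overlap, and those without it did, by 1 library of each. The effects were 0.55 (adjusted p = 0.025) and -0.47 (adjusted p = 0.022), a difference of 1.02 (adjusted p = 0.014).

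**Figure D4:**
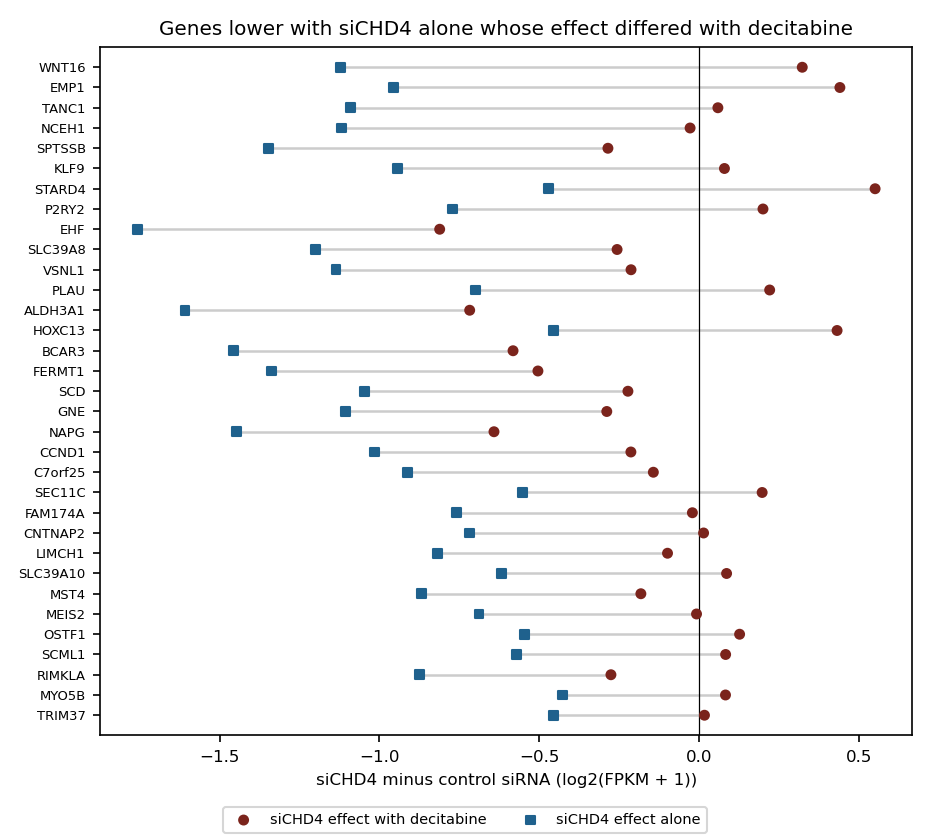
siCHD4 effect with decitabine (circles) and alone (squares), in log2(FPKM + 1), for the 33 genes with a higher called difference whose effect alone was called lower, ordered by the difference. Every square is below 0, and 15 of the circles are above 0, the highest being STARD4 at 0.55.

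Lower differences were led by replication-dependent histone genes, whose transcripts lack a poly(A) tail and are retained in total RNA libraries. Of 62 tested, 6 had a lower and 1 (HIST1H2AA) a higher difference, against 0.383% and 0.773% of all tested genes, and 5 and 1 (then HIST1H2BA) without the shallow library. The median of the 62 was -0.88, with 56 of them negative, and it lay between -1.20 and -0.42 under the alternatives run. Summed over the 62, the list stood at 28014, 25353 and 28775 FPKM in siCHD4 with decitabine, against 49518, 33064 and 31352 FPKM in control siRNA with decitabine, and at 63730, 88419 and 39038 FPKM in siCHD4, against 41426, 38653 and 54214 FPKM in control siRNA. The sums thus varied widely within siCHD4 alone, where replicate 2 lay within the control range, and the shallow library was the highest of its group. HIST1H2BG was at 98.1, 76.8 and 98.7 FPKM in siCHD4 with decitabine, against 288, 75.9 and 77.9 FPKM in control siRNA with decitabine, and at 15.2, 25.5 and 12.1 FPKM in siCHD4, against 0, 0 and 0.456 FPKM in control siRNA. The groups with decitabine overlapped, with the shallow library highest of all, and those without it were apart. Its difference was -4.37 (95% interval -5.53 to -3.21, adjusted p = 0.00070), and -3.74 without the shallow library.

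HIST1H1T, the testis linker histone gene, was at 60.4, 50.2 and 62.3 FPKM in siCHD4 with decitabine, against 57.7, 21.3 and 17.3 FPKM in control siRNA with decitabine, and at 113, 153 and 68.1 FPKM in siCHD4, against 3.14, 2.24 and 4.80 FPKM in control siRNA. Without the drug the groups were far apart, and with it the shallow library reached the siCHD4 range while the others stayed below. Its effects were 1.02 (adjusted p = 0.13) and 4.64, a difference of -3.62 (adjusted p = 0.0017). HIST1H2AE (-2.87), HIST1H2BI (-2.72) and HIST1H2BM (-2.26) were also called, and HIST1H3J (-2.31) was called only with the shallow library included (adjusted p = 0.054 without it). Histone genes have near-identical copies, and 195 of the 209 genes that average over 10 FPKM yet are listed at 0 in some library have names of small RNA or histone genes, so single histone values are uncertain.

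TXNIP and ARRDC4, alpha-arrestins that limit glucose uptake and are both targets of MondoA, moved together. TXNIP was at 60.0, 59.0 and 59.8 FPKM in siCHD4 with decitabine, against 28.9, 38.1 and 38.3 FPKM in control siRNA with decitabine, and at 73.8, 89.0 and 213 FPKM in siCHD4, against 14.1, 14.6 and 8.04 FPKM in control siRNA. No siCHD4 library overlapped with its control, and siCHD4 replicate 2 was far above the others of its group. Its effects were 0.76 with decitabine (adjusted p = 0.16) and 3.13 alone (adjusted p = 5.5e-06), a difference of -2.38 (95% interval -3.25 to -1.51, adjusted p = 0.0093). ARRDC4 was at 9.63, 8.84 and 10.2 FPKM in siCHD4 with decitabine, against 4.84, 6.58 and 5.88 FPKM in control siRNA with decitabine, and at 12.9, 13.0 and 28.0 FPKM in siCHD4, against 3.55, 2.93 and 2.15 FPKM in control siRNA. The same siCHD4 library was the highest, and the difference was -1.57 (adjusted p = 0.020). They were the sole called genes of 33 tested in the hypoxia and glycolysis list, with and without the shallow library, beside 0.383% of all tested genes with a lower difference, and the median of the list was -0.11.

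ACTA2, the smooth muscle actin gene, was raised in both settings, to 16.1, 17.2 and 13.8 FPKM in siCHD4 with decitabine, against 11.9, 6.70 and 7.96 FPKM in control siRNA with decitabine, and to 13.7, 12.4 and 14.3 FPKM in siCHD4, against 1.90, 2.33 and 3.07 FPKM in control siRNA. The siCHD4 groups overlapped in level and the control was higher with the drug, giving effects of 0.79 and 2.09 and a difference of -1.30 (adjusted p = 0.015). In ETS2, a transcription factor gene (-0.62), the controls were close and the siCHD4 groups were not: it averaged 29.0 ± 0.892 FPKM in siCHD4 with decitabine, 17.4 ± 0.968 in control siRNA with decitabine, 43.9 ± 4.11 in siCHD4 and 16.9 ± 1.03 in control siRNA (SD, n = 3 each). STMN3, of the stathmin family (-0.86), and AKR1C3, an aldo-keto reductase gene with close paralogues (-0.99), also had similar control means and a lower siCHD4 mean with the drug than without. DHRS2, a short-chain dehydrogenase gene, averaged 52.2 ± 6.46 FPKM in siCHD4 with decitabine, 21.3 ± 7.03 in control siRNA with decitabine, 97.8 ± 15.8 in siCHD4 and 8.69 ± 7.11 in control siRNA. Its difference of -2.30 was -2.05 without the shallow library, where it missed the threshold (adjusted p = 0.059). ASAP3, a regulator of Arf GTPases (-1.25), ATP9A, a phospholipid transporter gene (-1.05), and LOC100289187 (-1.18) were raised by siCHD4 alone and not by call with decitabine.

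AQP3, the water and glycerol channel gene, was at 11.9, 11.7 and 11.8 FPKM in siCHD4 with decitabine, against 17.6, 20.4 and 23.3 FPKM in control siRNA with decitabine, and at 0.995, 1.26 and 2.38 FPKM in siCHD4, against 1.10, 0.625 and 0.453 FPKM in control siRNA. Both drug groups lay well above those without it, and siCHD4 was below its control there and mostly above it, with some overlap, in the absence of the drug. The effects were -0.74 (adjusted p = 0.029) and 0.54 (adjusted p = 0.049), a difference of -1.28 (95% interval -1.82 to -0.73, adjusted p = 0.023). SNORA25, a small nucleolar RNA gene, was at 202, 164 and 196 FPKM in siCHD4 with decitabine, against 250, 408 and 350 FPKM in control siRNA with decitabine (effect -0.82, adjusted p = 0.021), with a difference of -1.31. HOMER2, a scaffold protein gene, had a difference of -0.78 (adjusted p = 0.036).

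**Figure D5:**
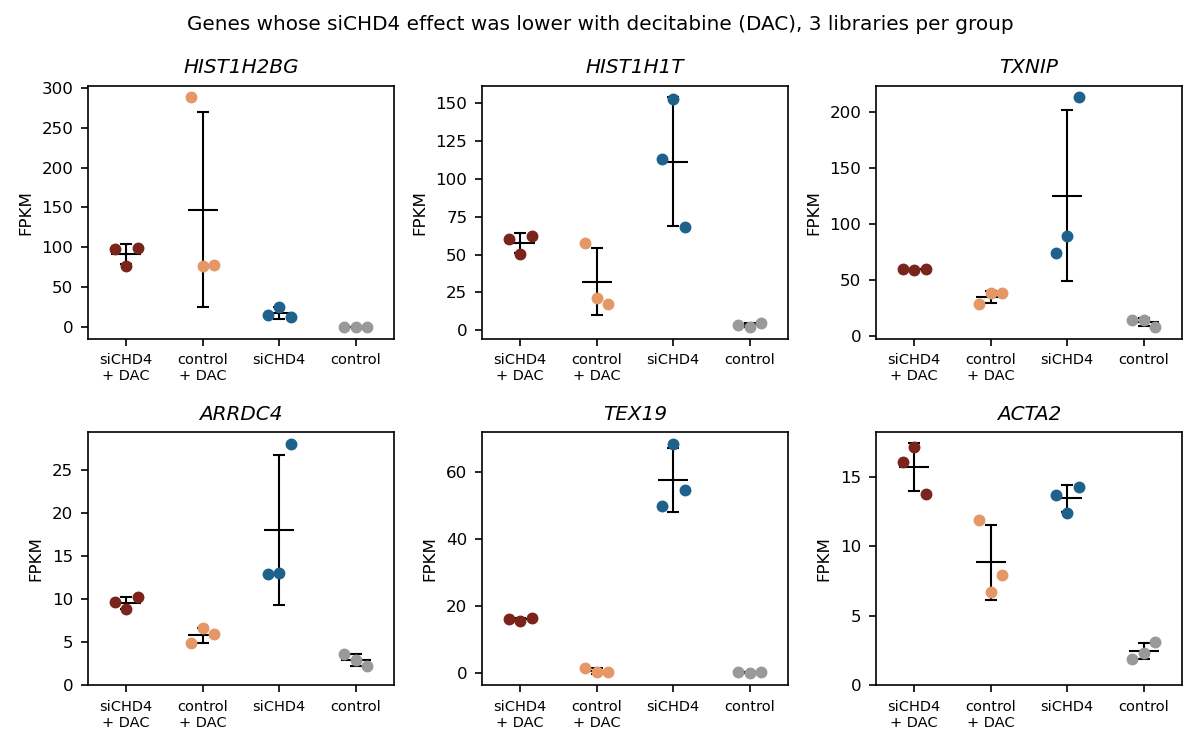
FPKM of 6 genes with a lower siCHD4 effect under decitabine, in each of the 3 libraries of the 4 groups; points are libraries, the horizontal bar is the mean and the error bar 1 SD, and DAC is decitabine. In every panel siCHD4 lies above control siRNA without the drug, as for TXNIP at 73.8 to 213 against 8.04 to 14.6 FPKM, and the gap is narrower or absent with it.

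The remaining lists held few or no called genes. Their counts are read beside the 0.773% of all tested genes with a higher and the 0.383% with a lower difference. Of 35 tested mitotic genes 3 were lower and none higher, with and without the shallow library: CDCA8, a subunit of the chromosomal passenger complex (-0.61, adjusted p = 0.019), CDC25C, the phosphatase that activates CDK1 (-0.61, adjusted p = 0.023), and KIF20A, a kinesin of cytokinesis (-0.66, adjusted p = 0.037), which kept its call in 3 of the 12 fits that leave out 1 library. The median of that list was -0.22. None of 15 NuRD genes, 52 DNA replication genes, 45 interferon-stimulated genes, 31 genes of endoplasmic reticulum and amino acid stress, 17 imprinted genes or 9 metallothioneins was called, and their medians lay between -0.11 and 0.04. Without the shallow library 1 of these, the interferon-stimulated MX1, was called higher, with a difference of 0.50 (adjusted p = 0.020), against 0.40 with it (adjusted p = 0.15). Of 19 genes of the DNA methylation machinery 1 was lower, DNMT3B, a de novo methyltransferase gene (-0.78, adjusted p = 0.041), which lost its call without the shallow library (adjusted p = 0.050) and kept it in 2 of the 12 fits that leave out 1 library. Among 11 tested neuronal genes, BEX2 (1.06) and BEX4 (0.93), small adaptor genes on the X chromosome, were higher and STMN3 was lower. Without the shallow library 4 were higher, NEFH and UCHL1 in addition, and STMN3 was lower. MX1, NEFH, UCHL1 and KLF4 are named for these calls after their values were seen.

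Metabolic and signalling lists were split. Of 29 cholesterol synthesis genes STARD4 and SCD were higher, of 25 detoxification genes ALDH3A1 was higher and AKR1C3 lower, and of 33 immediate early genes KLF10 was lower (-0.65, adjusted p = 0.046, and 0.055 without the shallow library). KLF10 kept its call in 3 of the 12 fits that leave out 1 library. Of 16 intestinal differentiation genes EHF was higher, joined by KLF4 without the shallow library, of 28 Wnt and stem cell genes CCND1 was higher and ETS2 lower, and of 20 mesenchymal transition genes 1 was higher and 1, ACTA2, lower. Apart from KLF10 and KLF4, the counts of these lists were the same without the shallow library. None of the 76 ribosomal protein genes was called, although 73 were negative with a median of -0.22; that median was 0.40 after quantile normalization, so the list has no direction that holds under every scaling. None of the 16 epithelial markers was called.

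The scale sets what counts as a difference. On linear FPKM, where no interaction means that the level in siCHD4 with decitabine equals control siRNA with decitabine plus siCHD4 minus control siRNA, 150 genes were above and 58 below this sum. TKTL1 was 14.4 FPKM (standard error 0.874) above a sum of 1.43 FPKM, and PAGE5 17.9 FPKM (standard error 1.68) above a sum of 5.39 FPKM. PAGE1, not called on the log scale, was 48.5 FPKM (standard error 4.62, adjusted p = 0.00013) above a sum of 14.5 FPKM. For NCEH1 the sum was -0.705 FPKM and for EHF -7.65 FPKM, levels that cannot occur, since siCHD4 alone and control siRNA with decitabine both lay far below control siRNA alone. TEX19 was 41.9 FPKM below its sum of 58.0 FPKM (standard error 4.98, adjusted p = 0.00075 for the departure), whereas TXNIP and HIST1H2BG were not called on the linear scale (adjusted p = 0.24 and 0.56).

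In the same study siCHD4 was also combined with siDNMT1, and the values can be set side by side, though both combinations share the libraries of siCHD4 and control siRNA alone and differ in schedule. TKTL1 averaged 30.3 ± 0.934 FPKM in siCHD4 with siDNMT1 and 0.403 ± 0.117 FPKM in control siRNA with siDNMT1, MAGEA4 10.6 ± 1.64 and 0.384 ± 0.0842 FPKM, and TXNIP 95.9 ± 8.03 and 22.4 ± 1.11 FPKM. Summed over the 54 tested cancer-testis and germline genes, the libraries of siCHD4 with siDNMT1 held 528, 577 and 539 FPKM and those of control siRNA with siDNMT1 112, 106 and 102 FPKM. The filter partly selected these members for high levels in the siCHD4 combinations.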

How the data were processed

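RNA was sequenced from 18 libraries of SW48 cells, stranded and rRNA-depleted, made from total RNA. Per the submitters' processing notes, reads were handled with TopHat2 2.0.9, Cuffdiff 2.1.1 and the hg19 build. The deposited table gives the authors' FPKM per gene and library; neither its annotation nor its scaling is given in the sources used here. Reads were not used, so depth is known only relatively and no counting intervals are given. Of 23599 entries, 28 with a number in place of a name were left out, and a gene was tested where 3 or more libraries reached 1 FPKM.

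The log2(FPKM + 1) scale used here understates changes of low genes. A model with 1 mean per group over all 18 libraries (12 residual degrees of freedom) was fitted with limma 3.58.1 in R 4.3.3, with a trended prior. The p-values are two-sided and adjusted by Benjamini-Hochberg over all 12809 genes, with calls at 0.05. Groups and replicate numbers come from titles. The method was tested on simulated data. Gene positions come from GENCODE for GRCh37, matched by symbol, and promoters from RefSeq.

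Genes named are CHD4, DNMT1, the 15 largest differences in each direction called with and without control siRNA with decitabine replicate 0, and up to 4 members of each list with the smallest p; 22 more were named after their values were seen, and a few genes that this rule selects are not reported here. The comparison, the members and the lists were chosen with earlier results of these data known.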

Additional observations from a re-analysis of the deposited data

Results flagged for a closer look

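The siCHD4 effect with decitabine and the siCHD4 effect alone were compared by a test of their difference, which was positive for 99 genes and negative for 49. The called genes named in the text are listed here with that difference, in log2(FPKM + 1).

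Germline genes with a higher effect under decitabine were TKTL1 (2.88), VCX (2.15), MAGEB2 (2.14), MAGEA4 (2.14), PAGE5 (2.03), MAGEA11 (1.92), MAGEB6 (1.80), CTAG2 (1.71), SSX3 (1.70), MAGEA1 (1.67), VCX2 (1.67), MAGEA8 (1.62), MAGEC2 (1.54), MAGEA3 (1.08), MAGEA6 (1.10) and BRDT (0.78). Other genes raised in the combination were HCLS1 (2.15), S100A7 (1.86), LOC100129520 (1.81), TUBA3E (1.59), KRT31 (1.46), HIST1H2AA (1.47), AEBP1 (1.26), BEX2 (1.06), HBE1 (1.04), EDA2R (0.98), BEX4 (0.93) and ESR1 (0.53). Genes lower with siCHD4 alone and less so, or not by call, with decitabine were WNT16 (1.44), EMP1 (1.40), TANC1 (1.15), NCEH1 (1.09), SPTSSB (1.06), KLF9 (1.02), EHF (0.95), ALDH3A1 (0.89), BCAR3 (0.88), FERMT1 (0.83), SCD (0.82), NAPG (0.80) and CCND1 (0.80), with STARD4 (1.02) raised in the combination.

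Among lower effects under decitabine, histone genes were HIST1H2BG (-4.37), HIST1H1T (-3.62), HIST1H2AE (-2.87), HIST1H2BI (-2.72), HIST1H3J (-2.31) and HIST1H2BM (-2.26). The alpha-arrestin pair was TXNIP (-2.38) and ARRDC4 (-1.57). Genes raised by siCHD4 in both settings were DHRS2 (-2.30), TEX19 (-2.02), ACTA2 (-1.30), AKR1C3 (-0.99), STMN3 (-0.86) and ETS2 (-0.62), and genes raised by call only alone were ASAP3 (-1.25), LOC100289187 (-1.18), ATP9A (-1.05), DNMT3B (-0.78), KIF20A (-0.66), KLF10 (-0.65) and CDCA8 (-0.61). Lowered by siCHD4 with decitabine were SNORA25 (-1.31), AQP3 (-1.28), HOMER2 (-0.78) and CDC25C (-0.61).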

How the results depend on the processing

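The counts of higher and lower differences were 99 and 49. They were 60 and 49 with a pseudocount of 0.1, 158 and 62 without a filter, 46 and 37 with a filter at 5 FPKM, 23 and 7 in a fit on the 12 libraries, 1395 and 1018 with library weights, 150 and 58 on linear FPKM, and ranged over 54 to 164 and 16 to 143 when 1 library was left out. The genes called with siCHD4 under decitabine (586) became 306 with the filter at 5 FPKM, 211 on the 12 libraries and 3707 with library weights, and ranged over 294 to 1242 with 1 library left out, lowest without siCHD4 with decitabine replicate 0 and highest without siCHD4 replicate 2. Those called with siCHD4 alone (2471) became 1344 on the 12 libraries and 5904 with library weights, and ranged over 1488 to 3451 with 1 library left out. The 12-library fit has fewer residual degrees of freedom; why weights gave so many more calls was not tested, with a weight of 0.0923 for the shallow library. The labels do not say whether replicate numbers pair libraries, and with 3 libraries per group the residuals cannot settle it. Same-number residuals correlated between -0.31 and 0.126, 2 of 18 pairs exceeded 0.1, and 2 of 12 libraries correlated best with their own number. With the replicate number as a block, 71 genes were higher and 26 lower, 491 were called with siCHD4 under decitabine and 2170 alone.

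None of the 67 called genes named here changed direction under any alternative; 66 kept their call under median ratio rescaling, 56 under quantile normalization, 52 with the block, 50 on linear FPKM and 25 of 64 on the 12 libraries. With 1 library left out, 42 to 66 of the 67 kept their call, fewest without control siRNA replicate 1 and most without siCHD4 replicate 2; 47 did without control siRNA replicate 0, 45, 45 and 46 (of 66) without siCHD4 with decitabine replicate 0, 1 and 2, and 61 without the shallow library. Of the 12 such fits, MAGEA6 kept its call in 1, DNMT3B and HIST1H2AA in 2, KIF20A, KLF10 and HBE1 in 3, HIST1H3J in 4, CCND1, HOMER2, SNORA25 and DHRS2 in 5, EHF, BCAR3 and ESR1 in 6, and AQP3, ASAP3 and ATP9A in 7, with a highest adjusted p of 0.141 (CCND1). The uncalled difference of DNMT1 (0.04) was -0.16 with library weights and ranged over -0.079 to 0.158 with 1 library left out (-0.01 without control siRNA with decitabine replicate 1 and without siCHD4 with decitabine replicate 1). The uncalled difference of PAGE1 (0.59) was -1.28 with a pseudocount of 0.1, while on linear FPKM it was positive and called. The sign of both thus depended on the setting. Read depth limits low genes most, above all in the shallow library.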
